A study of Drosophila melanogaster with 36 samples.

Results

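Among the 36 arrays of the series, 4 male arrays from 3 strains shared a deviation from the other males, and they are described here. They are male REC B, replicates A and B of male INV1, and male SIM1 C. They were chosen by their own measured values, namely by a common pattern of log2 intensities, so every contrast between these 4 arrays and the 13 other male arrays is a description and carries no test. Male REV1 A stood apart from the other males in another way and was left out of the 13.

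Each array measured RNA from 50 whole virgin flies of one sex, aged 5 to 7 days, on a single-colour NimbleGen array with one intensity per FlyBase transcript. The 6 strains were lines from a common scheme for engineering an inversion on the right arm of the second chromosome. INV1 and INV2 carried the inversion, which breaks an ultraconserved region, and had red eyes. REC carried both FRT-bearing transposable elements in cis, had red eyes and kept the region intact. SIM1 was a simultaneous control that went through the same induction and kept the standard arrangement. REV1 and REV2 had the inversion reverted, and these and SIM1 had white eyes. Each strain and sex had 3 biological replicates, lettered A to C, from separate crosses, and each strain is a single line. The 4 arrays thus covered an intact red-eyed strain, an inversion strain and an intact white-eyed strain, with 2 arrays from INV1 and 1 each from REC and SIM1. The 13 comprised 1 array of INV1, 2 each of REC, SIM1 and REV1, and 3 each of INV2 and REV2.

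In adult flies much of the transcriptome differs between the sexes, and most of the strongly biased transcripts come from the germ line. The testis expresses many transcripts that other tissues lack, and the ovary contributes maternal transcripts that are loaded into the egg. Whole-fly RNA mixes these organs with the soma, so the difference between a male and a female array is largest for transcripts of the reproductive tract. The identifiers of the series were paired with gene names only for a few transcripts, so marker genes of the gonads could not be used. The sex difference of each transcript, measured in the 13 males and the 18 females, was used here instead. The tissue of origin of the sex-biased transcripts was not tested.

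REV1 A had high values of the most female-biased transcripts. For 76 transcripts whose log2 level in males was more than 4 below that in females, REV1 A lay a median of 1.89 above the 13 males, with 74 of them over 2-fold higher. The 4 arrays had medians of 0.05 to 0.13 there, with 1 transcript over 2-fold higher on REC B and 0 on each of the other 3. Among the 13 arrays, the medians ran from -0.05 to 0.07. FBtr0071419, the most female-biased transcript, had a log2 intensity of 14.53 on REV1 A, close to the 18 females (lowest 15.03, median 15.24, highest 15.36). On the 4 arrays it had 9.06 in REC B, 9.24 in INV1 A, 8.70 in INV1 B and 8.75 in SIM1 C, against 8.28 to 8.90 in the 13. The 4 arrays lacked the high female levels of this transcript. FBtr0081956 read 12.33 on REV1 A. It had 8.22, 8.10, 7.84 and 7.95 on REC B, INV1 A and B, and SIM1 C, against 7.82 to 8.25 in the 13 and 14.32 to 14.47 in females. At these female-biased transcripts the 4 arrays and REV1 A differed.

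The deviation of an array was measured at each of 16637 transcripts as its log2 intensity minus the median of the 13 other male arrays (of the remaining 12 for an array among the 13). Its SD over transcripts was 0.533 for REC B, 0.530 for INV1 A, 0.497 for INV1 B and 0.623 for SIM1 C. Among the 13 it lay between 0.143 in REV2 B and 0.328 in REV2 C, with a median of 0.179, so the sets did not overlap. On the 4 arrays, 498 to 933 transcripts were over 2-fold higher than the median and 250 to 783 over 2-fold lower. On the 13 arrays the counts were 2 to 277 higher and 0 to 49 lower, and the highest count was that of REV2 C. SIM1 C deviated most, with 5.61% of transcripts over 2-fold higher and 4.71% over 2-fold lower.

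**Figure D1:**
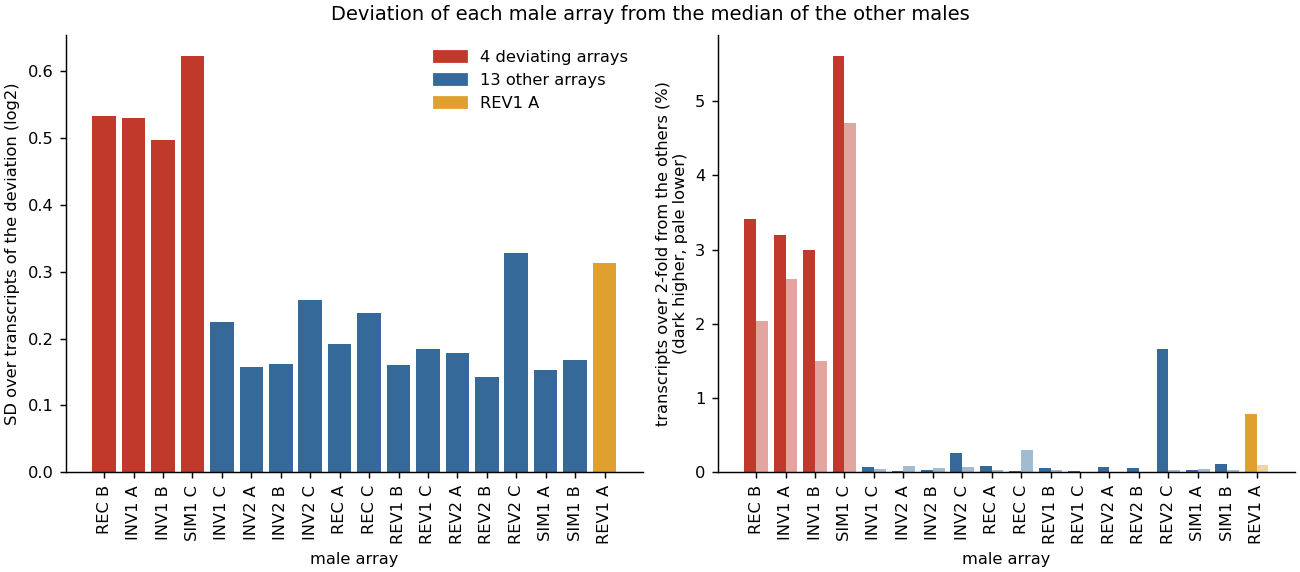
Deviation of each of 18 male arrays (horizontal axis) from the median of the other males. The left panel gives the SD over 16637 transcripts on the log2 scale and the right panel the percentage of transcripts over 2-fold higher (dark bars) and over 2-fold lower (pale bars). The 4 arrays have SDs of 0.497 to 0.623, against 0.143 to 0.328 on the 13 others, and REV1 A has 0.313.

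The 4 arrays deviated at the same transcripts and in the same direction. Over transcripts, the deviations correlated with r of 0.934 between INV1 B and SIM1 C, 0.928 between REC B and INV1 A, and 0.801 to 0.851 in the other 4 pairs. The 2 closest pairs were each made of arrays of different strains. Between 1 of the 4 arrays and 1 of the 13, r lay between -0.482 and 0.535 (52 pairs), and among the 13 between -0.608 and 0.729 (78 pairs). All these correlations share the median of the 13 as a baseline and are given as descriptions over 16637 transcripts, which are not independent. In a principal component analysis of the 18 male arrays the first component held 59.3% of the variance. Its loadings were 0.410 for REC B, 0.410 for INV1 A, 0.371 for INV1 B and 0.496 for SIM1 C, and they were negative on each of the other 14 arrays. Strain and replicate letter did not separate the 4 arrays from the rest. REC, INV1 and SIM1 also gave arrays among the 13, and all 3 letters occurred among the 4. INV2, REV1 and REV2 gave none of the 4. Each array's deviation was also correlated with the mean of the 4 minus that of the 13. This r was 0.428 in REC A, 0.312 in REC C, 0.469 in SIM1 B, 0.079 in INV1 C and 0.013 in SIM1 A. It was 0.307 in REV1 C, -0.031 in REV1 B and -0.427 to -0.019 in INV2 and REV2. A part of strain in the pattern was not tested. The labels used here give no slide, scan or position for any array, so a technical batch behind the 4 was not tested. In the order of the series, INV1 B was the next male array after SIM1 C, and REC B the next after INV1 A. Loadings on the third component (7.43% of the variance) were positive or close to 0 in that order from REV1 A to REC C. They were negative from REV2 C to REV2 B. The numbers in the array titles follow strain and letter. They were 2 for REC B, 6 for SIM1 C, 7 for INV1 A and 8 for INV1 B. What either order records is not stated, and the part of each in the deviation was not tested.

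**Figure D2:**
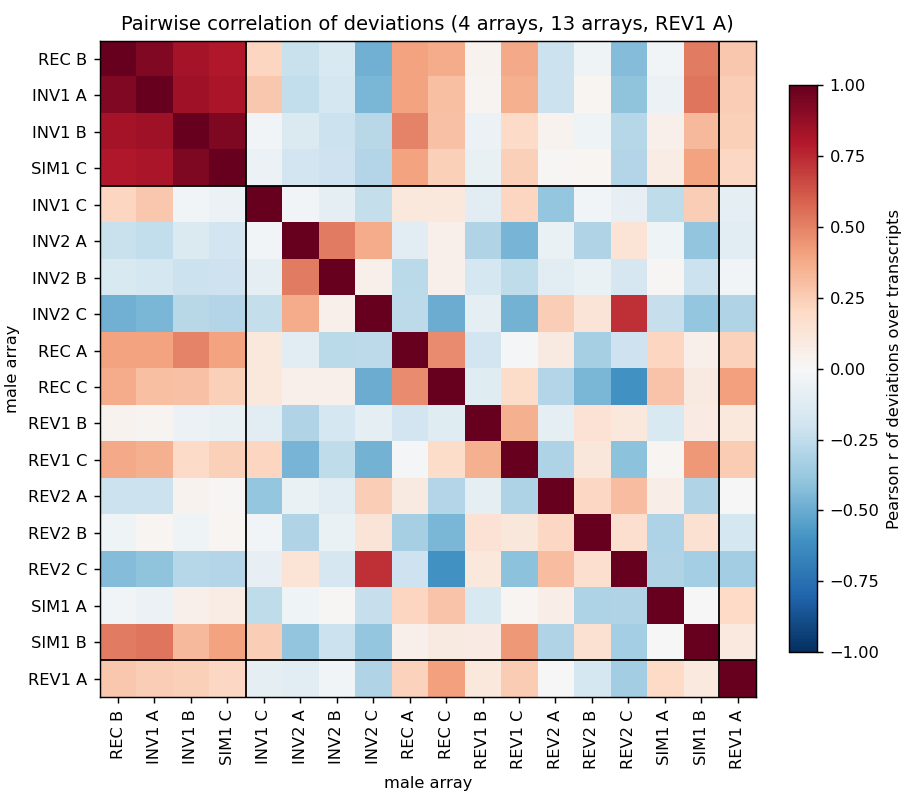
Pearson correlation over 16637 transcripts between the deviations of each pair of male arrays, with the 4 arrays first, then the 13 others, then REV1 A. Colour runs from -1 (blue) to 1 (red), and the block of the 4 arrays holds r of 0.801 to 0.934.

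The 4 arrays also split into the pairs REC B with INV1 A and INV1 B with SIM1 C. The mean of REC B and INV1 A minus that of INV1 B and SIM1 C had an SD of 0.292 over transcripts, smaller than the 0.516 of the shared deviation. It was over 1 on the log2 scale at 9 transcripts and under -1 at 50. It had r of -0.018 with the sex difference and 0.020 with brightness.

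The shared deviation was taken as the mean of the 4 arrays minus the mean of the 13. It had a median of 0.01 on the log2 scale and ran from -2.05 to 3.31. At 2824 transcripts (17%) all 4 arrays lay above all 13, and at 3193 (19.2%) all 4 lay below. At the remaining 10620 (63.8%) the sets overlapped. The arrays were chosen from these values, so the shares describe the size of the pattern and support nothing further. At the edges of the non-overlapping ranges the gaps between the sets were close to 0, 2.40e-04 above and 5.63e-04 below, and the nearest transcripts outside had a gap of 0. Large deviations were mostly upward, with 534 transcripts over 1 and 272 under -1. Past 2 on the log2 scale there were 38 transcripts on the high side and 1 on the low side. Both sets of arrays were disjoint at 507 of the 534 and at 248 of the 272.

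FBtr0082482 had the highest deviation, 3.31. Its log2 intensity was 14.70 in REC B, 13.88 in INV1 A, 14.17 in INV1 B and 13.80 in SIM1 C, against 10.02 to 12.85 (median 10.55) in the 13. All 4 arrays were above the brightest of the 13, REV1 B. FBtr0082679 had a deviation of 3.05, with 14.16, 13.24, 14.13 and 13.68 on REC B, INV1 A and B, and SIM1 C, against 10.09 to 12.27 (median 10.45) in the 13. The brightest of the 13 was again REV1 B. Both transcripts also varied among females, which the choice of arrays did not use, with 9.17 to 12.03 for FBtr0082482 and 9.07 to 11.60 for FBtr0082679, and female REC A was the highest female array for each. Neither had a gene name in the tables used here.

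FBtr0113798 had the lowest deviation, -2.05, with 10.08 in REC B, 10.20 in INV1 A, 10.16 in INV1 B and 9.74 in SIM1 C, against 11.79 to 12.58 (median 12.07) in the 13. The 4 arrays lay close to the females, which ran from 8.95 to 10.001, and SIM1 C was inside their range. Its male minus female difference was 2.47 in the 13. FBtr0091895 had a deviation of -1.996, with 9.30, 10.89, 11.02 and 10.49 on REC B, INV1 A and B, and SIM1 C, against 11.08 to 13.57 in the 13. INV1 B lay just below the lowest of the 13, REC C. Females lay between 12.46 and 13.27, so on this transcript the 4 arrays were below the females as well.

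**Figure D3:**
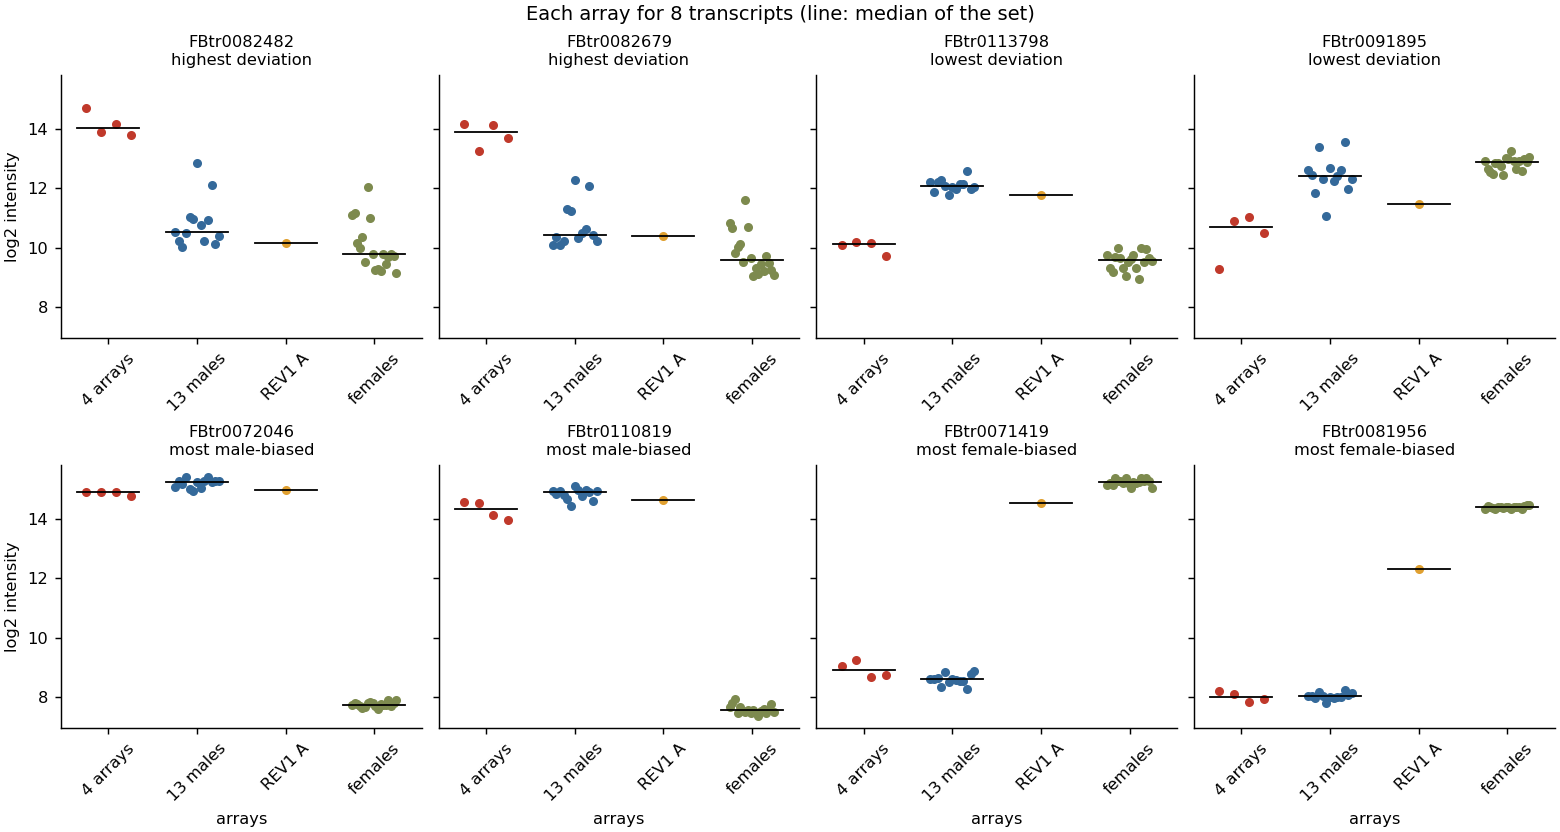
Log2 intensity on every array for the 2 transcripts of highest and of lowest deviation, the 2 most male-biased and the 2 most female-biased. Points are arrays and lines are medians of each set. On FBtr0082482 the 4 arrays are at 13.80 to 14.70, above the 13 males, and on FBtr0071419 REV1 A is at 14.53, beside the females.

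Transcripts biased towards males were lower on the 4 arrays, and those biased towards females slightly higher. The male arrays share nearly the same sorted values, so a lowering of many transcripts goes with higher values at others. How much of the rise at female-biased transcripts comes from this was not tested. The sex difference was the median log2 intensity of the 13 males minus that of the 18 females, with a median of 0.37 over all transcripts. For 2229 transcripts with a sex difference of 2 or more, the median deviation was -0.64, and at 1590 of them (71.3%) all 4 arrays lay below all 13. At 19 of them all 4 lay above. For 1558 transcripts with a sex difference of 3 or more, the median level was 0.652 of that in the 13 in REC B, 0.578 in INV1 A, 0.662 in INV1 B and 0.584 in SIM1 C. Of these transcripts 98.1%, 98.4%, 97.6% and 95.8% were below the median of the 13 on REC B, INV1 A and B, and SIM1 C. REV1 A was below that median at 81.6% of them, with a smaller median deviation of -0.14. On the 4 arrays the lower level was spread over nearly every one of these 1558 transcripts. In bulk RNA, fewer cells of a type and less RNA per cell cannot be told apart, and the tissue behind these transcripts was not tested.

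The change with the sex difference was not a straight line. Below 0, at 6577 transcripts, the median deviation was 0.16 and r between deviation and sex difference was -0.002. The median was 0.20 between -2 and -1, 0.13 between -1 and 0, 0.04 between 0 and 1, and -0.11 between 1 and 2. It was -0.52 between 2 and 3, reached -0.72 between 3 and 5, and was -0.47 for the 92 transcripts at 6 and over. The step thus lay between 1 and 3, and the most male-biased transcripts were less lowered than those at 3 to 5. Within the bin of 4 to 5, the 4 arrays had medians of -0.63 in REC B, -0.82 in INV1 A, -0.62 in INV1 B and -0.82 in SIM1 C, against -0.14 to 0.10 in the 13. INV1 A and SIM1 C were lower than REC B and INV1 B in every bin from 2 upwards, which crosses the pairs of closest arrays.

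**Figure D4:**
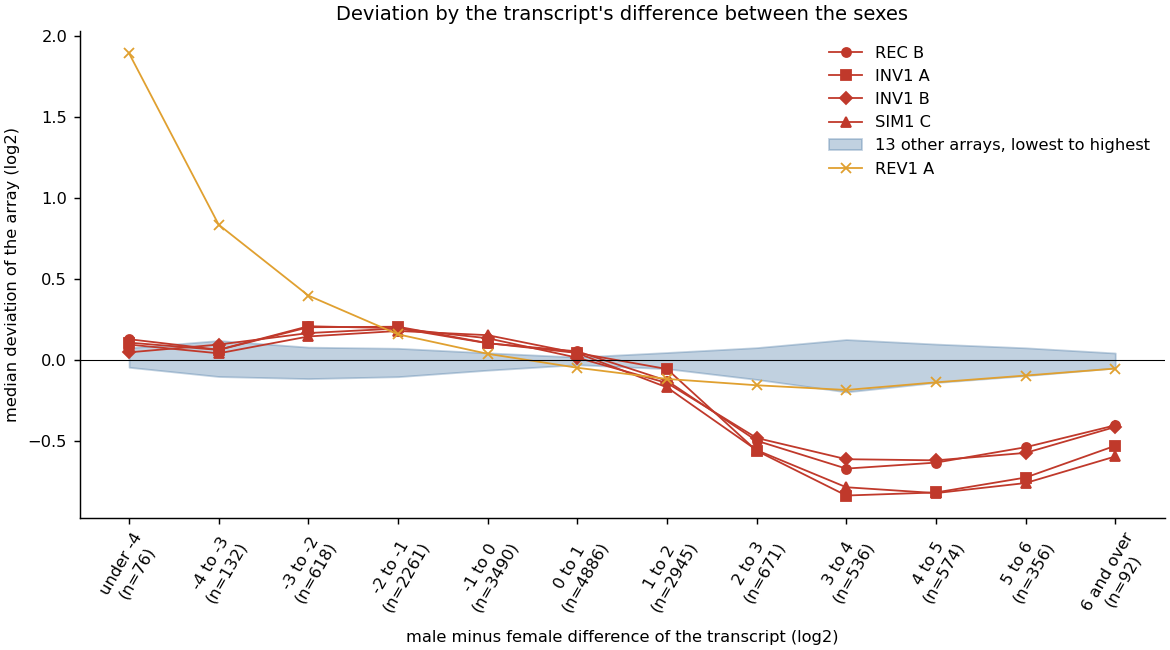
Median deviation of each array on the log2 scale (vertical axis) for transcripts grouped by their male minus female difference (horizontal axis, log2, with the number of transcripts). Red lines are the 4 arrays, the blue band spans the 13 others and the orange line is REV1 A. The 4 arrays fall to between -0.61 and -0.84 at differences of 3 to 4, and REV1 A reaches 1.89 at differences under -4.

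Over all transcripts, the deviation and the sex difference had r of -0.442 (Spearman's rho -0.449). By array, r was -0.415 for REC B, -0.462 for INV1 A, -0.420 for INV1 B and -0.396 for SIM1 C, with slopes of -0.124, -0.137, -0.117 and -0.138. Among the 13, r lay between -0.269 and 0.139 and slopes between -0.029 and 0.024. REV1 A had r of -0.493 with a slope of -0.086, and its largest deviations were at female-biased transcripts, as given above. These correlations share the 13 arrays between both measures. In a version without a shared male array, each of the 4 was set against the other males of its own strain and the sex difference was taken from INV2 and REV2 alone. There r was -0.434 for the mean of the 3 strains, -0.418 in INV1, -0.389 in REC and -0.405 in SIM1. The deviations so measured in different strains had r of 0.750 between INV1 and REC, 0.889 between INV1 and SIM1 and 0.741 between REC and SIM1.

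The difference from females of the same strain was smaller on the 4 arrays. The 10% of transcripts most male-biased were chosen from the males of INV2 and REV2 against the median of all 18 females. These strains gave none of the 4 but 6 of the 13. The females of REC, INV1 and SIM1 thus entered both the choice and the difference. These transcripts had a median male minus female difference of 3.68 in REC B, against 4.19 in REC A and 4.28 in REC C. It was 3.500 in INV1 A and 3.73 in INV1 B, against 4.19 in INV1 C. It was 3.53 in SIM1 C, against 4.29 in SIM1 A and 4.17 in SIM1 B. As a ratio, males were 11.3 to 13.3 times as bright as females on the 4 arrays, against 18 to 20.9 times on the 13, and 17.5 times on REV1 A. For the 10% most female-biased transcripts the median was -1.71 to -1.84 on the 4 arrays, against -1.89 to -2.23 on the 13, and REV1 A was inside the range of the 4 with -1.75. The 4 and the 13 did not overlap in either decile. For the female-biased decile, the part of the shared sorted values in this was not tested.

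**Figure D5:**
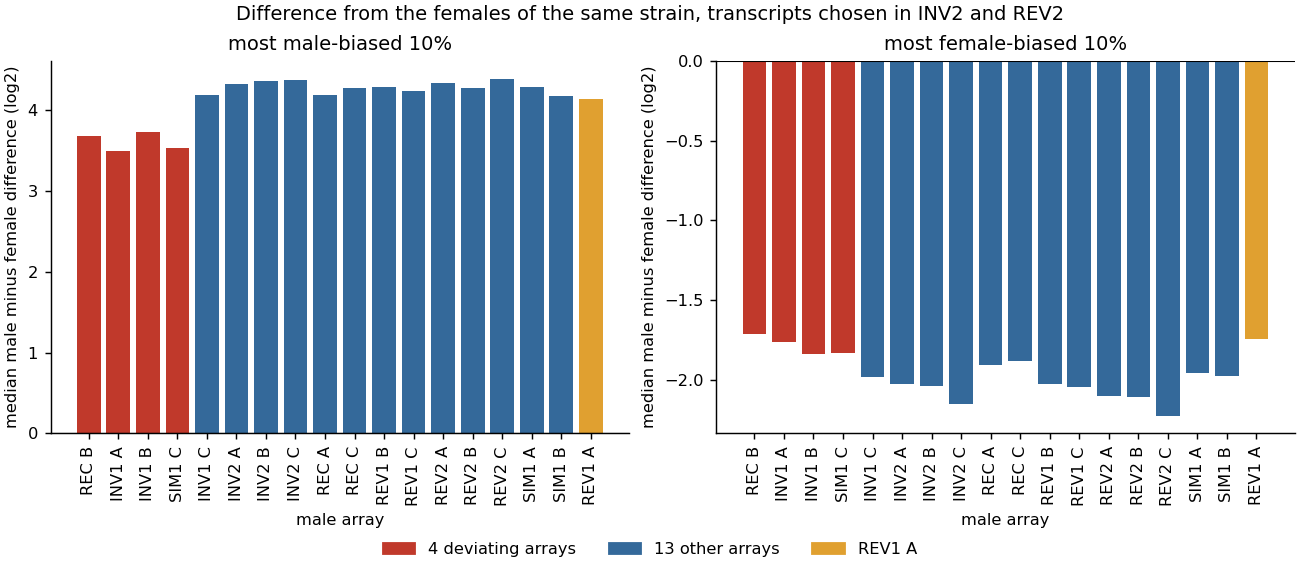
Median male minus female difference (log2) of each male array from the females of its own strain, for the 10% of transcripts most male-biased (left) and most female-biased (right) in INV2 and REV2. The 4 arrays lie at 3.500 to 3.73 on the left, against 4.17 to 4.39 for the 13 others.

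The 4 arrays remained male in profile. Their r with the median of the other males was 0.932 to 0.957, against 0.981 to 0.996 for the 13. Their r with the median of females was 0.646 to 0.660, against 0.542 to 0.596 for the 13, and REV1 A had 0.641, just below the 4. The most male-biased transcript, FBtr0072046, had a log2 intensity of 14.89, 14.88, 14.91 and 14.77 on REC B, INV1 A and B, and SIM1 C, against 14.92 to 15.39 in the 13 and 7.62 to 7.93 in females. All 4 arrays were below the 13, by a small step compared with the distance to females. FBtr0110819 had 14.57, 14.52, 14.12 and 13.95 on REC B, INV1 A and B, and SIM1 C, against 14.45 to 15.09 in the 13, and the sets overlapped.

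Large deviations were not spread evenly over the sex difference. With the transcripts ranked by it and cut into 10 deciles of 1663 or 1664 each, decile 1 being the most female-biased, those over 1 numbered 34 in decile 1, 82 in decile 5, 111 in decile 6, 88 in decile 7 and 3 in decile 10. Those under -1 numbered 1 in decile 1, 4 in decile 5, 46 in decile 7, 79 in decile 9 and 66 in decile 10. Upward deviations of this size were thus most frequent in the middle of the ranking and downward ones in its male-biased end. The SD of the deviation was 0.38 in decile 1, 0.56 in decile 7 and 0.25 in decile 10. Among the 50 largest upward deviations of transcripts at which all 4 arrays were higher, 0 had a sex difference of 2 or more. Among the 50 largest downward ones, 13 had. Of all 16637 transcripts, 2229 had such a difference.

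Brightness was taken as the mean of the set means of the 4 and of the 13. The deviation had r of 0.000 with it, and since the male arrays share nearly the same sorted values, a value close to 0 is built into this measure. The median deviation lay between -0.01 and 0.03 in every decile of brightness. The spread changed with brightness, from an SD of 0.26 in the dimmest decile to 0.59 in the fifth and 0.42 in the brightest. None of the dimmest decile deviated by over 1 in either direction. Against the level of the 13 males alone r was -0.153, and against the female median 0.254. In the 3 deciles of lowest female level the median deviation was -0.23 to -0.26, and in the 2 deciles just above the middle it was 0.20 and 0.18. The relation with the sex difference was present in each of 5 equal classes of brightness, with r of -0.292 in the dimmest and -0.552 in the brightest. Spearman's rho lay between -0.443 and -0.494 in the 5 classes and had no such trend.

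The choice of the 4 arrays had not used female values, but the male deviation set against them was built from those 4 arrays. The female arrays of the same strain and letter as the 4, were correlated with the within-strain male deviation after removal of their strain's mean. The mean r was 0.028 over these 4 female arrays and 0.000 over the other females of REC, INV1 and SIM1 (exact permutation test over 27 regroupings within strains, two-sided p = 0.889, smallest possible p 0.037). The labels do not say whether a letter marks the same cross in both sexes, and the test was chosen after the values were seen. With the strain mean removed, the residuals of a strain cancel out, so the means of partner and other females are tied. The test therefore cannot decide whether females of the same crosses share the pattern, and no conclusion is drawn from it. Female REC B had r of 0.316, female INV1 A -0.180, female INV1 B 0.023 and female SIM1 C -0.047. Set against all females, the 3 REC females had r of 0.201 to 0.411 with the male pattern, and the other 15 females had -0.245 to 0.124.

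The spread between arrays of one strain was also compared, for transcripts grouped by their deviation. In females, the median SD within strains was 0.148 for the 507 transcripts raised by over 1 on all 4 arrays, 0.176 for the 248 lowered by over 1, and 0.109 over all 16637. Of the 507, 77.3% had a female SD above the median of all transcripts, and of the 248, 72.6%. For all 2824 raised and all 3193 lowered transcripts the female SD was 0.116 and 0.099, close to that over all.

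The deviation also differed between blocks of identifiers. The 1639 transcripts numbered FBtr0110000 to FBtr0119999 had a median deviation of -0.14, with 8.72% raised on all 4 arrays and 24.1% lowered. The 13975 transcripts numbered FBtr0070000 to FBtr0089999 had a median of 0.03, with 18.4% raised and 18.8% lowered. The higher-numbered block held 98 of the 248 transcripts lowered by over 1 on all 4 arrays and 20 of the 507 raised. It held 38 of the 50 most lowered and 2 of the 50 most raised. Of its transcripts 10.1% were at a sex difference of 2 or more, against 13.9% in the lower-numbered block. Its median sex difference was nevertheless higher, at 0.640 against 0.302. At a sex difference of 0 to 2 lay 1092 of its 1639 transcripts, against 6126 of 13975 in the lower-numbered block. Among transcripts with a sex difference of 0 to 2, all 4 arrays were lower at 24.8% of the higher-numbered block, against 13.4% of the lower-numbered block. Transcripts of the higher-numbered block were dimmer, with a median brightness of 10.08 against 11.07. The parts of brightness and of the sex difference in the contrast between the blocks were not tested. Transcripts with consecutive identifiers, which often belong to the same or a neighbouring gene, had r of 0.244 between their deviations (12790 pairs), against 0.034 for identifiers 50 places apart. Isoforms of a gene can share probes, so such pairs are not independent.

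A gene name could be given to 16 transcripts that the gene table lists for exactly 1 gene. All 4 arrays lay above the 13 for 3 of them (18.8%), below for 3 (18.8%), and the sets overlapped for 10, with a median deviation of 0.05. These shares are near the 17% and 19.2% of all transcripts. The raised transcripts belonged to Fatp1, which encodes a fatty acid transport protein, LanA, a laminin alpha chain of basement membranes, and His4r, a histone H4 gene that is expressed outside DNA replication. Fatp1 had a log2 intensity of 14.004, 13.58, 13.51 and 13.43 on REC B, INV1 A and B, and SIM1 C, against 12.45 to 12.87 in the 13 (deviation 0.92). LanA had 11.77, 12.16, 11.85 and 11.78, against 10.82 to 11.27 in the 13 (0.80). LanA had a higher median in females than in the 13 males, with 11.12 to 12.34 in females, and the 4 arrays lay inside that range. His4r had 13.24, 13.25, 13.49 and 13.68, against 12.69 to 13.02 in the 13 (0.49).

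The lowered named transcripts belonged to sle, CG31178 and kis, the last of which encodes Kismet, a chromatin remodeller of the CHD family. For sle the log2 intensity was 13.04, 12.99, 13.22 and 12.80 on REC B, INV1 A and B, and SIM1 C, against 13.45 to 13.97 in the 13 (deviation -0.78). CG31178 is strongly male-biased, with a sex difference of 5.66. It had 12.45, 12.71, 12.34 and 12.26, against 12.80 to 13.31 in the 13 and 7.41 to 7.69 in females (deviation -0.66). For kis the values were 12.61, 12.73, 12.44 and 12.28, against 13.04 to 13.23 in the 13 (-0.60). Both sle and kis were higher in females than in the 13 males, so not every lowered transcript was male-biased. The 10 named transcripts with overlapping sets had deviations between -0.38 for NaPi-III, a phosphate transporter, and 0.38 for alpha-Spec, the alpha subunit of spectrin in the membrane skeleton. Among them Uba1, the ubiquitin-activating enzyme, had a deviation of 0.03, and mio, a subunit of the GATOR2 complex of nutrient sensing, had 0.00.

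The 4 arrays widened the spread within their strains. The median SD between the arrays of a strain was 0.188 in REC, 0.236 in INV1 and 0.232 in SIM1 with all arrays, and 0.085 in REC and 0.088 in SIM1 without the 4. INV1 then kept 1 array and had no SD. INV2, REV1 and REV2 had 0.100, 0.114 and 0.124. The equality of the 6 strain means in males was tested by the moderated F-test of limma, with calls at a Benjamini-Hochberg adjusted p under 0.01. With all 18 male arrays it called 13 of 16637 transcripts (0.0781%), and 3258 at an unadjusted p under 0.05. Without the 4 arrays it called 31 (0.186%), of which 12 were among the 13, and 4274 at the unadjusted threshold. Without REV1 A as well it called 24 (0.144%). The direction of this change depended on the test, since the methods' one-way comparison called 10, 7 and 4 in the same order of fits. The 4 arrays were chosen on their deviation in these male values, so leaving them out lowers the spread by construction, and the counts and p-values without them describe how the fit changes. The median residual SD was 0.206, 0.128 and 0.123 in the limma fits in that order, while the number of arrays fell to 14 and 13. In the fits without the 4 arrays, INV1 is represented by INV1 C alone, whose spread is assumed to be that of the other strains. With 1 array left out the counts ran from 8 to 19, 10 to 29 and 10 to 32 in that order of fits, so their ranges overlapped. INV1 C, the last INV1 array, was not left out of the fits of 14 and 13, and the difference between the counts was not tested. With all 18 arrays and a term for the 4, 50 transcripts were called, of which 26 were among the 31.

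FBtr0070477 was called without the 4 arrays (limma adjusted p = 0.00483) and had adjusted p = 0.176 with them. REC males had 11.23 in REC A and 11.34 in REC C but 10.67 in REC B. SIM1 had 10.44 in SIM1 C, against 11.06 and 11.10 in the other arrays, and INV1 had 10.80 and 10.76 in INV1 A and INV1 B, against 11.28 in INV1 C. Each of the 4 arrays was lower than the rest of its strain. FBtr0072971, also named from the fit without the 4, had limma adjusted p = 0.0622 with them. REC B read 10.77, against 11.26 and 11.45 in REC A and REC C. INV1 A and INV1 B read 10.955 and 11.288, against 10.948 in INV1 C. SIM1 C read 11.398, against 11.393 and 11.149 in SIM1 A and B. Only REC B was thus lower than the rest of its strain, and the deviation was 0.110. INV2 males were lowest, at 10.327 to 10.408. FBtr0086479 was called in each of these fits (adjusted p = 4.21e-10 without the 4 and 1.74e-13 with them), with REC at 8.40 in REC B, against 8.34 and 8.39 in REC A and REC C. White-eyed males had 12.09 to 12.49, SIM1 C included at 12.39, and INV males 8.97 to 9.59. Its deviation was -1.08, and 3 of the 4 arrays and 6 of the 13 came from red-eyed strains. FBtr0086478 also had REC lowest, then the INV strains, then the white-eyed strains (adjusted p = 1.26e-07 without the 4), a deviation of -1.03, and REC B at 8.75, between 8.52 in REC A and the INV arrays.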

How the data were processed

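The deposited values are linear fluorescence intensities per transcript, made by the authors from probes log-transformed and summarised by the median, with scale normalization between arrays (limma) named in the methods. Within each sex the sorted values are nearly equal on all arrays (at most 1.15% apart in males), and the median log2 intensity was 10.95 in males and 10.39 in females. Background correction is not given in the sources used here. Intensities were converted to log2 and used as deposited, with no filter, and the number of arrays limits the precision.

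Members, lists and comparisons were chosen with earlier results of these data known. Transcripts named were the 2 of highest and lowest deviation among those with disjoint sets, the 2 of highest and lowest sex difference, up to 10 per direction with a single gene name, and up to 2 per direction with the lowest p without the 4 arrays. Of the identifiers, 44 (0.264%) were in the gene table (Release 6 plus ISO1 MT), 16 for exactly 1 gene; planned lists of marker genes matched 0 and were not used.

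Strains were compared by limma 3.58.1 in R 4.3.3 (lmFit, eBayes), with a check of the code on simulated data. The simulated noise was independent between arrays and held no deviation shared by 4 arrays, so the check does not cover that setting. Descriptions were computed in Python 3.11.15 (pandas 2.3.3, scipy 1.17.1, numpy 2.4.6). P-values measure the spread between biological replicates of single lines. Alternatives were other normalizations, averages, comparison arrays, a filter on dim transcripts, other variance models, weights per array, a replicate block and leaving out single arrays (INV1 C stayed in the fits without the 4).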

Additional observations from a re-analysis of the deposited data

Results flagged for a closer look

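Within the 4 arrays, SIM1 C lay far from the other 3 in the share of transcripts over 2-fold higher than the 13 males, with 5.61%, against 2.99% to 3.41%. INV1 A was the highest of the 4 in its correlation with the female median, with r of 0.660, against 0.646 to 0.648. That gap is small beside the range of the 13 others, 0.542 to 0.596. Both were picked out as a highest value with an unusually wide gap to the next among 34 groups of 4 to 10 arrays looked at. Chance picks out about 1 in 20 such groups, so 2 among 34 is near what chance alone gives.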

How the results depend on the processing

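The correlation of the deviation with the sex difference kept its sign and moved by less than the SD over the 4 arrays (0.028) under all 24 alternatives, -0.427 to -0.449 with 1 array left out. Scaling moved the zero of the sex difference, whose median was 0.37 as deposited, -0.12 after scale and -0.21 after quantile normalization over all arrays. The median deviation of transcripts at 2 or more was -0.64, -0.65 and -0.74 under these scalings. Quantile normalization raised the SD of the deviation to 0.598. Within strains, where each of the 4 has fewer arrays to clear, 4476 transcripts had all 4 above and 5016 had all 4 below. The correlation with brightness, 0.000, became -0.050 without the dimmest 25%, -0.153 against the 13 males and 0.254 against females.

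The counts of strain calls depended on the setting. With 18, 14 and 13 arrays they were 7842, 1026 and 594 with array weights, which stopped before convergence at 18, and 40, 302 and 138 at an adjusted p under 0.05. An intensity trend with robust hyperparameters gave 13, 54 and 46. The methods' one-way comparison gave 10, 7 and 4, so the count fell without the 4 arrays there, whereas limma gave 13, 31 and 24. The same-letter arrays were not paired by the labels. With a replicate block the counts were 9, 14 and 10, and 7 of 18 males were nearest to their own letter. A term for the 4 gave 50. With 1 array left out the counts were 8 to 19 of the 18, 10 to 29 of the 14 and 10 to 32 of the 13. In the fit of 18 it was 8 without INV2 B, REC C, REV1 A or REV1 B. In the fit of 14 it was 10 to 18 without INV2 A or B, REC A or C, REV1 B or C, REV2 A or B, or SIM1 A or B. In the fit of 13 it was 10 to 15 without INV2 A or B, REC A or C, REV1 B or C, REV2 B or SIM1 A. Detection over background was not analysed here.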
